A study of Mus musculus with 10 samples.

Results

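The AP-1 and early growth response factors are 10 genes named by symbol, in a choice made with earlier results of these data known: the FOS family members Fos, Fosb, Fosl1 and Fosl2, the JUN family members Jun, Junb and Jund, the stress-induced Atf3, and the zinc finger factors Egr1 and Egr2. All 10 were found among the 55487 genes of each table, and all 10 passed the filter on low counts. Their RNA was measured by RNA sequencing of skin from 10 mice, 5 wild type (WT) and 5 carrying Hamp1-KI ker, here called KI, with 1 library per mouse. The series concerns hepcidin overexpression in skin, and hepcidin is the iron-regulating peptide made from Hamp. The labels give no age, sex, skin site, strain or promoter and do not spell out "ker". The titles of 3 WT and 2 KI libraries begin with EAS37 and those of 2 WT and 3 KI libraries with EAS42, and nothing says what these prefixes mean. The comparison asked whether these factors differed between the genotypes and how they varied from mouse to mouse.

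AP-1 is a dimer of basic leucine zipper (bZIP) proteins, in which a JUN protein pairs with itself, with a FOS protein or with an ATF protein and binds DNA at TGANTCA or TGACGTCA. Fos, Fosb, Junb, Atf3, Egr1 and Egr2 are immediate early genes, transcribed within minutes of growth factor, wounding or stress signals without new protein synthesis. Serum response factor binds CArG boxes in front of several of them. In skin, AP-1 members take part in keratinocyte proliferation, differentiation and wound repair, and epidermal JUN proteins are known for their part in inflammatory skin disease models. Because these genes respond so quickly, handling of an animal or a tissue can also raise their RNA.

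Among the members higher in KI, Egr2 and Junb have a promoter window in the RefSeq table that is free of annotated exons. The last 130 bases before the transcription start of each are shown 5′ to 3′ on the gene's strand, beside Fos, the classic serum-responsive gene that did not pass the test. They come from RefSeq on GRCm38.p6, at chr10:67537739-67537868 (plus strand), chr8:84978749-84978878 (minus strand) and chr12:85473760-85473889 (plus strand). Capitals mark a CArG box in Egr2 and a TATAAA box in Fos.
Egr2: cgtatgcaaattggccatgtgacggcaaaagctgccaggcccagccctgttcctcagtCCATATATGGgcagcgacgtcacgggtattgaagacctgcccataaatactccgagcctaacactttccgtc
Junb: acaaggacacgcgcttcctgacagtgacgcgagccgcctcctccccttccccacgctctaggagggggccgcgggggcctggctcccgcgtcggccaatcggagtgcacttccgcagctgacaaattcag
Fos: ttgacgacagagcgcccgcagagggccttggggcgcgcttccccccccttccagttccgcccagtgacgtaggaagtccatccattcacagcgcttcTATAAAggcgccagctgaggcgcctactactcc

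Windows were searched for 8 of the 10 members (12 windows, as Egr2 has several starts). Fosl1 had no window in the table used here. Windows on chromosome 18, where Egr1 lies, were left out, so no Egr1 window was searched. The 250 bases before each start were searched on both strands for the CArG box (CC, 6 bases that are A or T, GG), TGANTCA, TGACGTCA, the EGR motif GCGNGGGCG and TATAAA. The Egr2 box CCATATATGG lies at bases -72 to -63 from the start shown, and another, CCTTTTTTGG, lies at -72 to -63 from the start at 67537566. CArG boxes stand in 1.47% of the 32851 windows of the table. The EGR motif was found as GCGGGGGCG at -79 to -71 in Fosl2 and at -50 to -42 in Fosb, beside 4.7% of all windows. TATAAA was found at -33 to -28 in Fos, beside 12.37% of windows. No CArG box was found in the Fos window. Bases farther than 250 before a start were not searched, so a box there would not have been seen. TGANTCA stands in 6.75% and TGACGTCA in 1.55% of windows, and neither was in a member's window among those searched. No motif searched was in the windows of Jun, Junb, Jund or Atf3, which says only that these letters are not there. The Jund start used here, 70697739, lies before the gene start at 70698949. The Atf3 start used, 191183333, lies within the gene, which runs from 191170296 to 191218039.

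Libraries held 18.96 to 26.43 M expected counts. Hamp lay at 1.86 to 3.33 counts per 1e6 (CPM) in WT and 85.6 to 169 CPM in KI libraries, so every library matched its label. The 15 epidermal markers were all measured, and their summed CPM was 21331 to 25552 in WT and 24052 to 39127 in KI. Markers of other tissues differed in level. Of 23 skeletal muscle markers 5 were lower in KI and none higher, beside 15.3% of all genes tested that were lower, and their summed CPM spanned 36285 to 63120 in WT and 4323 to 39107 in KI. Of 17 adipocyte markers 10 were lower in KI. Hair shaft markers stood apart in WT 2 (summed 5444 CPM) and KI 2 (1177 CPM), each the highest of its genotype, while the EAS42 libraries held at most 33.2 CPM.

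Fosl1, Junb and Egr2 were higher in KI skin, Atf3 was lower, and the other 6 members did not pass the test. Of the 10 members, 4 passed an adjusted p of 0.05, 3 higher and 1 lower. Over all 17321 genes tested, 30.9% passed, 15.6% higher and 15.3% lower. The groups did not overlap in CPM for 3 of 10 members and for 20.3% of all genes tested, so neither count sets the members apart from other genes. The median log2 fold change was -0.00 over the members and -0.01 over all genes tested. In whole skin, fewer cells of a type and less RNA per cell cannot be told apart, and this holds for every value that follows.

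**Figure D1:**
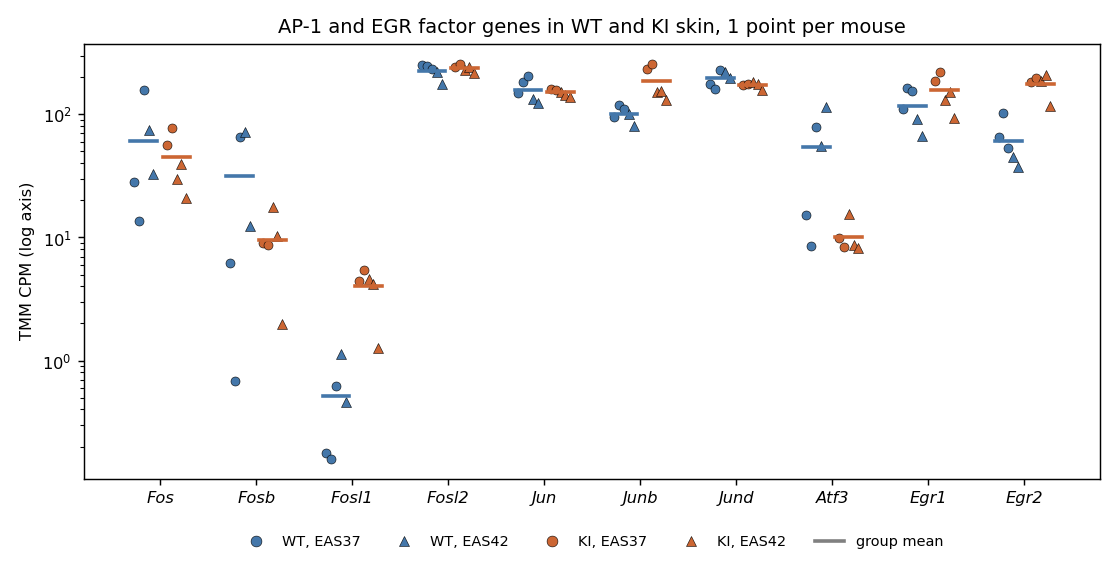
CPM of each member (log axis) in WT (blue) and KI (orange) libraries, circles for prefix EAS37 and triangles for EAS42, with bars at group means. KI points lie above all WT points for Fosl1, Junb and Egr2, and WT points of Fos, Fosb and Atf3 spread over more than 10 times from lowest to highest.

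Among the FOS family, only Fosl1 passed the test. Fosl1 (ENSMUSG00000024912, chromosome 19, 5447547 to 5455946, plus strand, GRCm38) encodes FRA1, a FOS protein without the transactivation domain of Fos that is raised by growth factor signals. It was measured at 0.177, 0.159, 0.623, 1.137 and 0.459 CPM in WT 1 to WT 5 and at 4.44, 5.47, 4.62, 4.19 and 1.27 CPM in KI 1 to KI 5. All 5 KI libraries lay above all WT libraries, with KI 5 just above WT 4. The means were 0.511 ± 0.401 and 3.998 ± 1.60 CPM (SD, n = 5 each), a 7.57-fold difference (95% interval 3.24 to 17.6). On the log2 scale this was 2.92 ± 0.53 (SE; adjusted p = 0.00355 by edgeR). The exact permutation test, two-sided, returned p = 0.00794, which is its lower limit with groups of 5.

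The Fosl1 values rest on few reads, 63 counts over the WT libraries and 433 over the KI libraries. On the deposited TPM scale, which also divides by effective transcript length, the groups overlapped: KI 5 stood at 1.01 TPM, below WT 3 at 1.38 and WT 4 at 2.35. The difference on the log2(TPM + 0.5) scale was 1.52 (limma adjusted p = 0.0295). With effective lengths as offsets in edgeR, the log2 fold change was 1.97 (adjusted p = 0.0466 by edgeR). The gene shares bases with Ccdc85b on the other strand, which lay at 30.2 ± 6.52 CPM in WT against 30.3 ± 1.63 CPM in KI (SD, n = 5 each; edgeR adjusted p = 0.999). The library kit marks strand, and the strand setting of the counting is not given in the sources used here.

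Fosl2, which encodes FRA2 and had the highest mean TPM of the FOS family in both genotypes, was nearly even across mice. Fosl2 (ENSMUSG00000029135, chromosome 5, 32135801 to 32157842, plus strand) lay at 252.3, 248, 232, 223 and 178 CPM in WT 1 to 5 and at 241, 258, 229, 244 and 215 CPM in KI 1 to 5. The groups overlapped, and WT 5 was the lowest library. The fold was 1.05 (95% interval 0.895 to 1.23; edgeR adjusted p = 0.629).

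Fos and Fosb, the founding immediate early members of the family, varied far more between WT mice than between the group means. Fos (ENSMUSG00000021250, chromosome 12, 85473890 to 85477273, plus strand) stood at 28.4, 13.7, 157, 75.2 and 32.7 CPM in WT 1 to 5 and at 56.5, 77.6, 30.1, 39.3 and 20.8 CPM in KI 1 to 5. WT 3 was the highest and WT 2 the lowest of all 10 libraries. KI over WT gave a log2 fold change of -0.45 ± 0.64 (SE; adjusted p = 0.618 by edgeR), with a 95% interval of the fold from 0.265 to 2.02.

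Fosb (ENSMUSG00000003545, chromosome 7, 19302696 to 19310051, minus strand) stood at 6.18, 0.688, 65.4, 71.8 and 12.4 CPM in WT 1 to 5 and at 8.98, 8.61, 17.7, 10.3 and 1.98 CPM in KI 1 to 5. WT 3 and WT 4 were high, WT 2 was the lowest, and all KI libraries fell inside the WT range. For Fosb the log2 fold change came to -1.72 ± 1.03 (SE; adjusted p = 0.232 by edgeR), with a 95% interval of the fold from 0.0584 to 1.59. A difference in either direction is thus within the intervals for Fos and Fosb.

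Among the JUN family, Junb rose and Jun and Jund did not pass the test. Junb (ENSMUSG00000052837, chromosome 8, 84974484 to 84978718, minus strand) encodes a JUN protein that often restrains JUN-driven proliferation and is needed for normal epidermis. It was measured at 94.8, 119, 110, 100 and 81.1 CPM in WT 1 to 5 and at 236, 255, 151, 155 and 131 CPM in KI 1 to 5. The groups did not overlap, and KI 1 and KI 2, the EAS37 mice, were the highest. The means were 101 ± 14.6 and 186 ± 55.7 CPM (SD, n = 5 each), a 1.84-fold difference (95% interval 1.35 to 2.49). As a log2 fold change, that is 0.88 ± 0.19 (SE; adjusted p = 0.00795 by edgeR; exact two-sided permutation p = 0.00794). Prdx2, which overlaps it on the other strand, lay at 164 ± 2.89 CPM in WT against 180 ± 17.0 CPM in KI (SD, n = 5 each; edgeR adjusted p = 0.180).

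Jun (ENSMUSG00000052684, chromosome 4, 95049034 to 95052222, minus strand), the main transactivating partner in AP-1, lay at 148, 182, 206, 133 and 124 CPM in WT 1 to 5 and at 162, 158, 153, 143 and 138 CPM in KI 1 to 5. All KI libraries fell inside the WT range. The fold was 0.952 (95% interval 0.771 to 1.18; edgeR adjusted p = 0.709). Its antisense neighbour Junos averaged 0.950 CPM in WT against 1.41 CPM in KI (edgeR adjusted p = 0.192).

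Jund (ENSMUSG00000071076, chromosome 8, 70698949 to 70700616, plus strand), the most constantly expressed JUN gene in many tissues, lay at 176, 159, 230, 220 and 198 CPM in WT 1 to 5. In KI 1 to 5 it lay at 174, 176, 183, 177 and 159 CPM. WT 3, WT 4 and WT 5 were the highest libraries, and the groups overlapped. The fold was 0.883 (95% interval 0.751 to 1.04; edgeR adjusted p = 0.196).

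Atf3, a stress-induced bZIP factor that can repress transcription, was lower in KI skin on average, with overlapping groups. Atf3 (ENSMUSG00000026628, chromosome 1, 191170296 to 191218039, minus strand) was measured at 15.3, 8.57, 79.5, 55.3 and 114 CPM in WT 1 to 5 and at 9.94, 8.42, 15.6, 8.68 and 8.21 CPM in KI 1 to 5. WT 3, WT 4 and WT 5 were high, while WT 1 and WT 2 lay within the KI range. The means were 54.6 ± 44.3 and 10.2 ± 3.11 CPM (SD, n = 5 each), a 5.36-fold lower level in KI. Its log2 fold change of -2.42 ± 0.65 (SE) passed at an adjusted p of 0.0206 by edgeR, and the 95% interval of the fold was 0.0664 to 0.524.

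For Atf3 the exact permutation test (two-sided) gave p = 0.0635. The call was lost without KI 1 (edgeR adjusted p = 0.0525), without KI 2 (0.0547) and without KI 4 (0.0515), with no low-count filter (0.0546), in limma-voom (limma adjusted p = 0.0891) and within EAS37 alone (edgeR adjusted p = 0.334). Within EAS42 alone Atf3 passed, at a log2 fold change of -2.97 (edgeR adjusted p = 0.0187). The log2 fold change stayed between -2.70 and -1.96 when each library was left out in turn.

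Of the EGR genes, Egr2 rose and Egr1 did not pass the test. Egr2 (ENSMUSG00000037868, chromosome 10, 67535475 to 67542188, plus strand) encodes KROX20, known for driving myelination in Schwann cells and also found in hair follicle and immune cells. It was measured at 66.1, 102, 52.9, 44.9 and 37.1 CPM in WT 1 to 5 and at 184, 197, 185, 209 and 116 CPM in KI 1 to 5. All KI libraries lay above all WT libraries, with KI 5 closest to WT 2. The means were 60.6 ± 25.6 and 178 ± 36.1 CPM (SD, n = 5 each), a 2.94-fold difference (95% interval 1.91 to 4.52). This equals a log2 fold change of 1.56 ± 0.27 (SE; adjusted p = 0.00322 by edgeR; exact two-sided permutation p = 0.00794).

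Egr2 thus stood higher in KI while 8 of 9 Schwann cell markers fell, their summed CPM being 873 to 2405 in WT and 277 to 678 in KI. Their part in the Egr2 value was not tested. Without WT 2 and KI 2, the libraries highest in hair shaft markers, the Egr2 log2 fold change was 1.79 (edgeR adjusted p = 0.00188).

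Egr1 (ENSMUSG00000038418, chromosome 18, 34859823 to 34864984, plus strand), the growth factor-induced zinc finger factor that binds GC-rich promoters, lay at 110, 165, 154, 92.3 and 66.4 CPM in WT 1 to 5. In KI 1 to 5 it lay at 189, 222, 131, 152 and 93.3 CPM. The groups overlapped, and within each genotype every EAS37 mouse lay above every EAS42 mouse. The fold was 1.34 (95% interval 0.851 to 2.11; edgeR adjusted p = 0.279). With the title prefix as a block, the log2 fold change was 0.59 and passed (edgeR adjusted p = 0.0178).

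**Figure D2:**
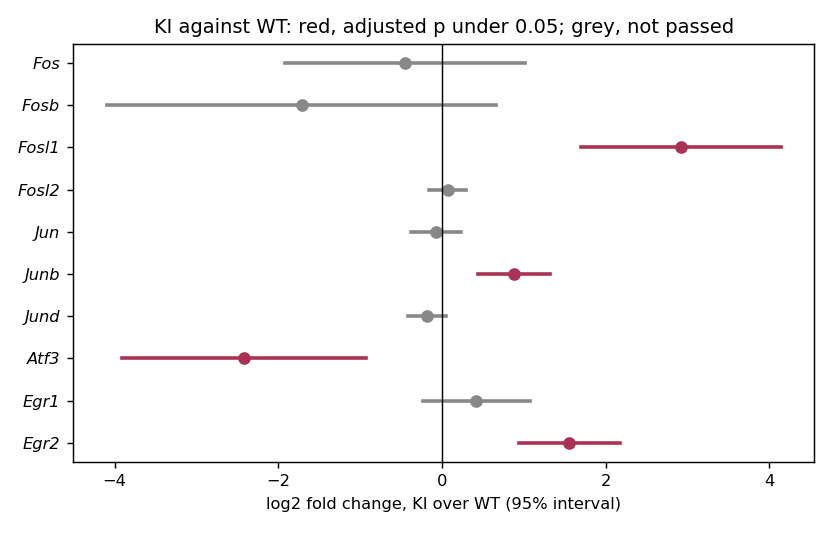
Log2 fold change of KI over WT for each member with its 95% interval, red where the edgeR adjusted p was under 0.05. Fosl1 (2.92), Egr2 (1.56) and Junb (0.88) lie to the right of 0 and Atf3 (-2.42) to the left, and the interval of Fosb is the widest.

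The calls of these 4 members were lost when skeletal muscle or adipocyte markers entered the model, while the fold change of Junb shrank most. With hair shaft markers in the model all 4 still passed. With the mean log2 CPM of the skeletal muscle markers as a covariate, the log2 fold changes were 2.55 for Fosl1, 0.42 for Junb, 1.42 for Egr2 and -2.04 for Atf3. None of these passed, at edgeR adjusted p of 0.0864, 0.305, 0.0980 and 0.330, while the count of genes called over the whole table fell from 5351 to 405. With the adipocyte markers instead, the log2 fold changes were 2.48, 0.42, 1.61 and -2.28 (edgeR adjusted p = 0.174, 0.520, 0.143 and 0.383), with 197 genes called. Both marker levels were themselves lower in KI, so the covariate and the genotype cannot be fully told apart in these fits. Without WT 2 and KI 2 all 4 members still passed, at log2 fold changes of 2.57 for Fosl1, 0.80 for Junb, 1.79 for Egr2 and -2.64 for Atf3.

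Set against each other per transcript length, in TPM, the levels were ordered differently in the genotypes. In WT, Jund was highest at 180 ± 26.5 TPM, followed by Junb at 84.5 ± 12.1, Jun at 72.1 ± 16.1, Egr1 at 55.1 ± 19.4 and Fosl2 at 49.5 ± 7.25 TPM (SD, n = 5). Fos at 46.4 ± 44.6, Atf3 at 41.0 ± 33.1, Egr2 at 32.6 ± 13.4, Fosb at 12.3 ± 13.5 and Fosl1 at 0.938 ± 0.922 TPM came after (SD, n = 5). In this WT order only Jund and Junb were neighbours whose ranges did not overlap.

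In KI, Jund at 150 ± 12.4 and Junb at 144 ± 36.3 TPM stood side by side (SD, n = 5), with Jund the higher in 3 of 5 libraries. Egr2 at 90.6 ± 18.1 TPM came next and exceeded Egr1, at 68.8 ± 19.5 TPM, in 5 of 5 KI libraries. Then came Jun at 64.6 ± 2.796, Fosl2 at 49.0 ± 3.88, Fos at 30.9 ± 14.4, Atf3 at 7.59 ± 2.28, Fosb at 3.53 ± 2.14 and Fosl1 at 3.31 ± 1.40 TPM (SD, n = 5). The neighbours whose ranges did not overlap were Jun and Fosl2, and Fos and Atf3.

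The make-up of the JUN family and of Egr1 with Egr2 differed accordingly, given here as a description with no test. Junb made up 25.2% ± 3.20 of summed JUN family TPM in WT (22.2% to 30.4%) and 39.9% ± 6.43 in KI (34.5% to 47.7%; SD, n = 5 each). The share of Jund was 53.5% ± 5.92 and 42.03% ± 5.02, while the family sums were 336 ± 37.9 and 359 ± 35.7 TPM (SD, n = 5 each). Egr2 made up 37.1% ± 5.56 of Egr1 plus Egr2 TPM in WT (28.4% to 41.5%) and 57.2% ± 4.96 in KI (50.6% to 61.6%; SD, n = 5 each). Ranges of Junb and Egr2 shares did not overlap between genotypes, while those of every FOS family member did. In the FOS family Fosl2 held 54.1% ± 23.6 in WT and 58.0% ± 9.95 in KI, and Fosl1 0.777% ± 0.617 and 3.69% ± 1.29 (SD, n = 5 each). WT 3 was the library with the smallest Fosl2 share, 25.5%, and WT 2 the one with the largest, 83.4%.

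**Figure D3:**
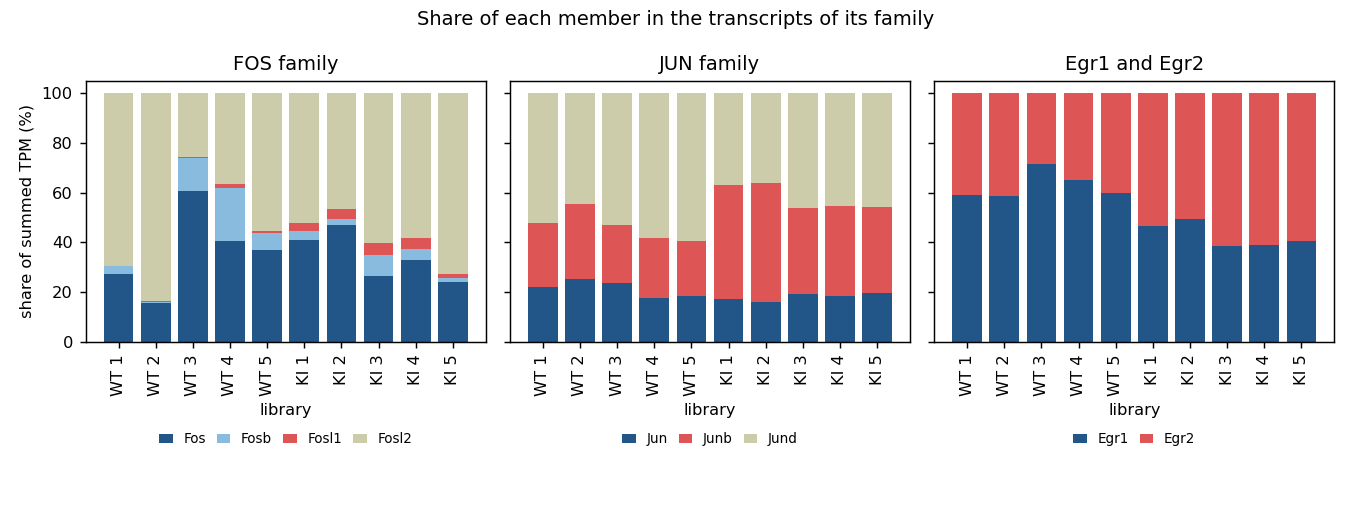
Share of each member in the summed TPM of its family (percent), 1 bar per library, for the FOS family, the JUN family and Egr1 with Egr2. The Junb share of 34.5% to 47.7% in KI lies above the WT span of 22.2% to 30.4%, and Egr2 exceeds 50% in all 5 KI libraries and in no WT library.

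The members also differed in how evenly they were expressed among mice of 1 genotype. The SD of log2 CPM over the 5 WT mice was 2.70 for Fosb, 1.60 for Atf3 and 1.35 for Fos, larger than in 99.4%, 99.0% and 98.9% of the 12550 genes with a mean of at least 5 CPM. The highest WT library exceeded the lowest 104 times for Fosb, 13.3 times for Atf3 and 11.4 times for Fos. In contrast the WT SDs of Jun, Jund, Junb and Fosl2 were 0.31, 0.22, 0.21 and 0.20, beside a median of 0.168 over these genes. Among KI mice the SD was 1.16 for Fosb, 0.74 for Fos, 0.42 for Junb and 0.38 for Atf3, and 0.10, 0.10 and 0.08 for Fosl2, Jun and Jund, beside a median of 0.180. The difference in spread between genotypes was not tested. KI 5 held the lowest KI value of all 10 members.

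Heat shock genes also respond to tissue handling. Of 12 such genes 2 were higher in KI (Hspd1 and Hspe1, log2 fold change 0.35 each), 1 was lower (Bag3, -0.43) and 9 did not pass. Over all genes tested 15.6% were higher and 15.3% lower. The summed CPM of the 12 heat shock genes spanned 4352 to 5098 in WT and 4254 to 5698 in KI. Within genotype, over 10 libraries, their mean log2 CPM had r = 0.595 with Fosl1, 0.542 with Fos, 0.476 with Junb, 0.466 with Atf3, 0.406 with Jund and 0.392 with Fosb, as a description. For the remaining members r was 0.144 with Egr1, -0.151 with Jun, -0.175 with Fosl2 and -0.213 with Egr2. With their level as a covariate the log2 fold change of Atf3 was -2.13 (edgeR adjusted p = 0.0399). Whether handling moved the members was not tested, by this fit or otherwise.

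After the genotype means were subtracted, some members rose and fell together from mouse to mouse. Over the 45 pairs of members and the 10 libraries, 6 pairs passed an adjusted p of 0.05 by Pearson correlation of log2 CPM (exact permutation within genotype, 14400 assignments). By Spearman correlation 0 pairs passed, and 8 had an unadjusted exact p under 0.05. Fosb and Jund were the closest pair, at r = 0.976 (exact permutation p = 0.000625, adjusted 0.0141) and rho = 0.90 (exact permutation p = 0.00431, adjusted 0.0969). WT 2 was lowest and WT 3 and WT 4 highest in both. Without WT 2 and WT 4, the libraries farthest from the median in Fosb, r was 0.961, and with the prefix means also subtracted it was 0.972.

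Junb and Egr1 formed a separate pair, at r = 0.873 (exact permutation p = 0.000347, adjusted 0.0141) and rho = 0.95 (exact permutation p = 0.00125, adjusted 0.0562). Both were high in the EAS37 mice WT 2, WT 3, KI 1 and KI 2 and low in WT 5 and KI 5. Their r was 0.884 without KI 1 and KI 2, and 0.963 with prefix means subtracted too. The other pairs past the threshold were Fosb with Fosl1 (r = 0.860), Fosl1 with Jund (0.851), Jun with Egr1 (0.833) and Fosl2 with Egr1 (0.821). The last fell to 0.563 without WT 5 and KI 5 and thus rests on those libraries. With prefix means subtracted too, r was 0.874 for Fosb with Fosl1 and 0.865 for Fosl1 with Jund. It fell to 0.637 for Jun with Egr1 and to 0.587 for Fosl2 with Egr1. The permutation held genotype but not prefix fixed. Fosb and Atf3 had r = 0.774, with an adjusted exact permutation p of 0.166.

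**Figure D4:**
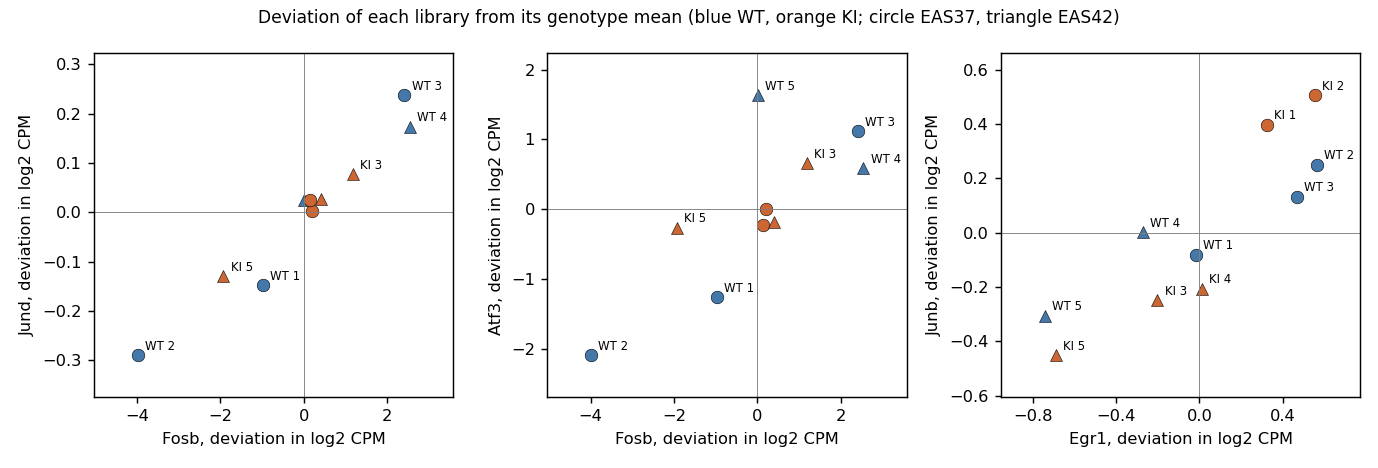
Deviation of each library from its genotype mean in log2 CPM, Fosb against Jund, Fosb against Atf3 and Egr1 against Junb, with crowded points left unlabelled. WT 2 is lowest and WT 3 and WT 4 are highest on the Fosb axis, and in the Egr1 panel the EAS37 mice (circles) lie mostly to the upper right.

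The genes whose pattern was most like each member were ranked by the same within-genotype correlation over 10 libraries, among about 12550 genes with at least 5 CPM, as a description. They were Samd8 (r = 0.932) and Fam102a (0.916) for Fos, Rela (0.949, after Jund) for Fosb, Myadm (0.964) and Ubtd1 (0.948) for Fosl1, and Resf1 (0.963) and Arid2 (0.957) for Fosl2. For the JUN genes they were Dyrk2 (0.952) and Vsir (0.935) for Jun, Morf4l2 (0.966) and Bend3 (0.965) for Junb, and Arhgap29 (0.937, after Fosb) for Jund. For Atf3 they were Nans (0.966) and Pdgfb (0.944), for Egr1 Rab31 (0.970) and Ddx6 (0.970), and for Egr2 Gpc4 (0.957) and Slc30a6 (0.956). No test was made of these ranks.

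The genotype difference was set out within each title prefix, in a model of all 10 libraries with an interaction. For Fosl1 the log2 fold change was 3.88 in EAS37 (edgeR adjusted p = 0.00233) and 2.05 in EAS42 (0.0675). For Junb it was 1.18 (0.000199) and 0.68 (0.00965), and for Egr2 1.37 (0.0101) and 2.05 (0.00814). For Atf3 it was -1.91 (0.182) and -2.96 (0.0795), in this joint model of both prefixes. A separate fit of each prefix gave Atf3 -1.89 in EAS37 (edgeR adjusted p = 0.334) and -2.97 in EAS42 (edgeR adjusted p = 0.0187). The difference of effects passed for 0 of 10 members by edgeR, beside 0.866% of all genes tested, and Junb alone had an unadjusted p under 0.05. Its difference was -0.50 (edgeR adjusted p = 0.191).

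Between the prefixes, with genotype in the model, 1 of 10 members passed, beside 2.47% of all genes tested. Egr1 was lower in EAS42 by a log2 fold change of -0.78 (edgeR adjusted p = 0.0416), and leaving out any of 8 of the 10 libraries lost this call, with adjusted p between 0.0581 and 0.119. Junb had -0.50 (edgeR adjusted p = 0.0537). The hair shaft markers differed between the prefixes in the same libraries, and their part in these values was not tested.

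The wider bZIP family was spread evenly around 0. Of 19 listed partners and relatives of AP-1, 18 were tested. In KI 2 were higher, 2 were lower and 14 did not pass, beside 30.9% of all genes tested that passed. The median log2 fold change of the list was -0.02. Batf, an AP-1 factor of lymphocytes and myeloid cells, rose from 0.636 ± 0.193 to 1.54 ± 0.404 CPM (SD, n = 5 each; edgeR adjusted p = 0.00978). Mafg, a small MAF protein, rose by a log2 fold change of 0.22 (edgeR adjusted p = 0.0168). Batf3, known from dendritic cells, fell by 0.73 on the log2 scale (edgeR adjusted p = 0.0260), and Jdp2, a JUN dimerization partner that represses AP-1, fell by 0.39 (0.0464). Of 12 markers of T cells and macrophages 6 were higher in KI and none lower, beside 15.6% of all genes tested that were higher. Those 6 were Cd3d, Cd3g, Cd4, Trbc2, Cd74 and H2-Aa. Cd3e and the macrophage and myeloid markers Cd68, Adgre1, Csf1r, Itgam and Lyz2 did not pass. The summed CPM of the 12 markers was 304 to 471 in WT and 473 to 752 in KI. Their part in the Batf value was not tested.

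Egr3, the close relative of Egr2, rose with it, from 73.5 ± 15.9 to 113 ± 12.4 CPM (SD, n = 5 each), with no overlap between groups. The log2 difference of 0.62 ± 0.14 (SE) passed at an adjusted p of 0.00831 by edgeR. The EGR corepressors Nab1 and Nab2 did not pass, at log2 fold changes of 0.03 and -0.20. Egr4 had 14 counts in WT and 31 in KI and was not tested.

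Other immediate early genes moved in both directions. Of 33 tested, 6 were higher in KI, 9 were lower and 18 did not pass, with a median log2 fold change of -0.07. Over all genes tested 15.6% were higher and 15.3% lower. The cell cycle factor Myc rose from 54.5 ± 9.28 to 82.6 ± 2.19 CPM and the kinase gene Pim1 from 54.7 ± 9.21 to 84.8 ± 5.60 CPM (SD, n = 5 each; edgeR adjusted p = 0.00361 and 0.00253). The other 4 that rose were Ier2, Ier3, Arc and Klf10. Rhob, a small GTPase gene, fell from 156 ± 17.6 to 94.7 ± 6.23 CPM and Ccn2, the matricellular YAP and SRF target, from 208 ± 70.6 to 73.1 ± 29.9 CPM (SD, n = 5 each; edgeR adjusted p = 0.000532 and 0.00597). Klf2, Nfkbia, Gadd45g, Ccn1, Btg2, Id1 and Per1 also fell. Klf2 is an endothelial factor, and 10 of 12 endothelial markers fell as well, with a summed CPM of 330 to 448 in WT and 204 to 290 in KI. Their part in the Klf2 value was not tested. The genes named here beyond the 4 with the smallest p were chosen after their values were seen.

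Among feedback genes of the MAP kinase pathway, few passed without the title prefix in the model. Of 14 MAP kinase phosphatase and sprouty genes, 3 fell and 11 did not pass, beside 15.3% of all genes tested that were lower. The median log2 fold change of the list was -0.20. Dusp8 fell by 0.46 on the log2 scale (edgeR adjusted p = 0.0056), Dusp10, which encodes a phosphatase of JNK and p38, by 1.18 (0.0135) and Spry1 by 0.60 (0.0391). Spred2 had -0.39 (0.0542). With the title prefix as a block 7 passed: the same 3 and Spred2 were lower, while the ERK phosphatase genes Dusp4, Dusp5 and Dusp6 were higher. Their blocked log2 fold changes were 1.22, 0.93 and 0.90 (edgeR adjusted p = 0.0165, 0.0149 and 0.0307), against 0.87, 0.78 and 0.86 without it. The block also raised the calls in other lists, so the gain is not particular to feedback genes. With it 19 other immediate early genes passed (15 without), 10 MAP kinase and SRF-side genes (7) and 6 bZIP relatives (4). So did 5 members (4 without) and 17 AP-1 target genes (16). The share of all genes called in the blocked fit is not given here, so its counts do not set any list apart. The counts of EGR relatives (1) and heat shock genes (3) stayed the same. Among 21 tested MAP kinases, their activators and SRF-side factors, 4 rose, 3 fell and 14 did not pass, with a median of 0.03. Over all genes tested 15.6% were higher and 15.3% lower, so these counts do not set the list apart. Mapk13, which encodes the delta isoform of p38, rose from 114 ± 12.9 to 199 ± 13.8 CPM (SD, n = 5 each; edgeR adjusted p = 0.000328). Map2k4 and Map2k1, kinases upstream of JNK and ERK, rose by log2 fold changes of 0.45 and 0.44 (edgeR adjusted p = 0.0129 and 0.0163). Mapk12, the p38 isoform abundant in skeletal muscle, fell by 0.91 (edgeR adjusted p = 0.0120), beside the lower muscle markers given above.

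Most tested genes on a list of textbook AP-1 targets in epidermis and wounds were higher in KI. Of 28 listed, 24 were tested, 16 were higher in KI, none was lower and 8 did not pass, beside 15.6% of all genes tested that were higher, and their median log2 fold change was 1.37, beside -0.01 over all genes tested. The protease inhibitor gene Timp1 rose from 2.62 ± 0.341 to 36.2 ± 10.7 CPM, and the gelatinase gene Mmp9 from 5.88 ± 1.51 to 55.4 ± 14.8 CPM (SD, n = 5 each; edgeR adjusted p = 6.27e-06 and 5.51e-05). The collagenase gene Mmp13 rose from 0.346 ± 0.320 to 24.5 ± 7.26 CPM and the cornified envelope gene Sprr1b from 0.794 ± 0.610 to 93.8 ± 59.7 CPM (SD, n = 5 each; edgeR adjusted p = 0.000348 and 0.000395). Krt16, Ptgs2, Mmp3, Tslp, Ccnd1, Vegfa, Hmox1 and Lor did not pass, and Ccnd1 had a log2 fold change of -0.30. The list was chosen with earlier results of these data known, so its share and median are not independent evidence. No test of the list was made. Mmp1a, Mmp10, Il6 and Csf2 had too few counts to be tested (0, 11, 8 and 0 in WT and 0, 36, 36 and 10 in KI).

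The same list shares genes with lists of cells and states. Of 12 markers of wound-activated epidermis 10 rose, and their summed CPM was 1033 to 4558 in WT and 5025 to 17683 in KI. Of 11 neutrophil markers, 7 had too few counts to be tested. Among those 7, the defining marker Ly6g had 0 counts in every library, Camp had 21 counts in WT and 7 in KI, Ltf 8 and 9, Elane 3 and 3, and Mmp8 3 and 30. Cxcr2 reached the filter through KI, with 10 counts in WT and 380 in KI. S100a8 and S100a9, which activated keratinocytes also make, are on the target list too. The part of these cells in the target genes was not tested, and no target gene was linked to a given AP-1 member by these data. With the muscle markers as a covariate, 7 of the 24 target genes passed, among them the 4 named above, and so did Rhob of the 33 other immediate early genes and Mapk13 of the 21 MAP kinase genes. By edgeR 0 bZIP relatives, 0 EGR relatives and 0 phosphatase and sprouty genes passed in that fit, with 3, 1 and 3 at an unadjusted p under 0.05. Egr3 had a log2 fold change of 0.40 there (edgeR adjusted p = 0.255) and Batf 1.11 (0.187).

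**Figure D5:**
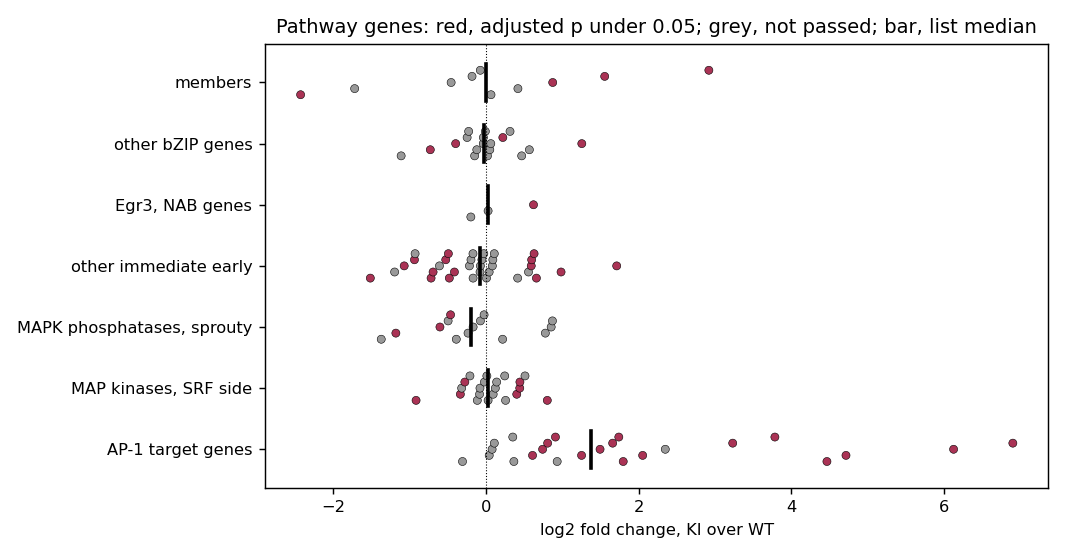
Log2 fold change of KI over WT for each tested gene of the members, other bZIP genes, Egr3 and NAB genes, other immediate early genes, MAP kinase phosphatase and sprouty genes, MAP kinase and SRF-side genes and AP-1 target genes, red where the edgeR adjusted p was under 0.05, with a bar at the list median. The AP-1 target list has its median at 1.37 with no red point below 0, while the medians of the 6 lists drawn above it lie between -0.20 and 0.03. All lists were chosen with earlier results of these data known.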

How the data were processed

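Skin RNA was isolated with trizol and sequenced from Illumina stranded mRNA libraries, per the labels' protocols. STAR 2.5.2b, featureCounts, Picard 2.8.1, FastQC, DESeq2 1.14.1 and the build GRCm38 are named in the submitters' processing notes, whose roles are not stated. Each deposited table has RSEM columns, and the authors made its expected counts, TPM and effective lengths, per the file headers. Annotation release and strand setting: not given in the sources used here. Expected counts as deposited need not be whole (10.40% to 12.16% of values were fractional) and were rounded. GENCODE M21 named 55141 of 55487 identifiers and gave the coordinates, and the 346 others held 0.0507% of counts. TPM as deposited by the authors served only to set genes against each other and in 1 alternative.

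Genes were kept by filterByExpr (minimum count 10, minimum total 15). The 17321 genes that passed held all but 0.127% of counts. The main test was edgeR's quasi-likelihood test (version 4.0.16, R 4.3.3, TMM, robust) of KI against WT, adjusted by Benjamini-Hochberg over all genes tested at a threshold of 0.05. CPM uses TMM library sizes, and log2 CPM a prior count of 2. Intervals of folds are at 95% with 8 residual degrees of freedom. For each member, an exact permutation test (two-sided) of log2(CPM + 0.5) ran over every split of the libraries into 5 and 5. Prefix effects came from models with an interaction or with genotype plus prefix. All pairs of libraries differed by more than sampling noise (lowest chi-square per gene 27.0). The labels do not name separate cultures or litters or explain the prefix, so whether the mice were independent of each other is not known. The p-values take each mouse as an independent unit, and the main model holds no prefix term. The edgeR test was tried on simulated counts.

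The members and lists were chosen with earlier results of these data known. Named genes are the 10 members, up to 4 genes of each pathway list with the smallest p, and the 2 genes most correlated with each member. Replicates were numbered in accession order. Alternatives were other normalizations, filters and tools (DESeq2 1.42.0, limma 3.58.1), effective length offsets, the prefix as a block, each prefix alone, marker levels as covariates and each library left out. The hair shaft covariate, the adipocyte covariate for list counts, and leaving out WT 2 and KI 2 together were chosen after seeing the data.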

Additional observations from a re-analysis of the deposited data

Results flagged for a closer look

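Of 20 groups of 5 libraries (10 members in both genotypes), 2 held a library far from the others, where chance gives about 1 in 20 groups. Atf3 in KI 3 was 15.6 CPM, the highest of its group, with the next at 9.94 CPM. That KI library also had the highest summed skeletal muscle level of its genotype, 39107 CPM. Egr2 in KI 5 was 116 CPM, the lowest of its group, with the next at 184 CPM, and the other 9 members were also at their KI lowest there.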

How the results depend on the processing

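No paired analysis was possible because the numbers in the titles name different mice and none is shared by both genotypes within a prefix. Genes called numbered 5351, and 3821 to 5850 when each library was left out, 2488 in EAS42 alone, 405 with the muscle and 197 with the adipocyte covariate. In EAS42 alone Fosl1 had 2.04 (edgeR adjusted p = 0.0862) and Atf3 -2.97 (0.0187). With effective length offsets Fosl1 had 1.97 (0.0466). At a minimum count of 50 Fosl1 was not tested. Over 26 other fits Fosl1 passed in 23, and over 27 Junb and Egr2 passed in 25 each and Atf3 in 19. Without 1 library at a time Fosl1 spanned 2.71 to 3.45, Junb 0.74 to 0.99, Egr2 1.42 to 1.83 and Atf3 -2.70 to -1.96. Atf3 had -2.43 with no filter, -1.93 in limma-voom, -1.89 in EAS37 alone, -2.04 with muscle and -2.28 with adipocyte markers. With muscle and adipocyte markers Fosl1 had 2.55 and 2.48, Junb 0.42 and 0.42, and Egr2 1.42 and 1.61. With muscle markers 1 other immediate early gene (15 in the main test), 7 target genes (16) and 1 MAP kinase gene (7) passed, and the calls of 4 bZIP, 1 EGR and 3 phosphatase and sprouty genes were lost. Of the last list 7 passed with the prefix block. With adipocyte markers 6 target genes passed. Egr1 passed with the prefix block (0.59) and with hair shaft markers (0.64, edgeR adjusted p = 0.0177). For these the cause was not tested.

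Signs turned only for members that did not pass. Fosl2 had -0.0063 on TPM, -0.071 with muscle markers and -0.0076 without WT 5 (up to 0.12 without KI 5). Jun had 0.0073 with the prefix block, 0.16 in EAS42 alone, 0.019 with adipocyte markers, 0.026 with hair shaft markers and 0.039 without WT 3 (down to -0.15 without WT 5). Fos had 0.034 in EAS37 alone and 0.25 without WT 3 (down to -0.74 without KI 2), and Egr1 -0.11 with muscle markers. The difference between prefixes turned to 1.16 for Fosb without WT 4 (lowest -3.41) and to -0.077 and -0.035 for Egr1 without WT 5 and KI 4 (highest 0.40). The prefix coefficient turned to -0.032, -0.037 and -0.30 for Fosl1 without WT 1, WT 2 and WT 4 (highest 0.45), and to -0.24 for Fosb without WT 4 (highest 1.63). The median over all genes tested moved by less than 0.1 in each fit. Fosl1 at 63 WT counts is the member most limited by depth.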

Other observations

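Some members varied with the mean levels of cell markers within genotype, given as descriptions over 10 libraries with no test. The mean log2 CPM of wound-activated epidermis markers had r = 0.853 with Egr1, 0.821 with Junb, 0.771 with Egr2, 0.674 with Fosl2 and 0.607 with Jun. With the remaining members it lay between 0.0058 (Fos) and -0.599 (Atf3). That of T cell and macrophage markers had r = 0.779 with Jund, 0.750 with Fosb, 0.748 with Fos, 0.707 with Atf3 and 0.665 with Fosl1. With the remaining members it lay between -0.031 (Junb) and -0.428 (Egr2). Skeletal muscle markers had r from -0.696 with Junb, the lowest, to 0.138 with Atf3, the highest. The points share library and depth.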
